A study of Mus musculus with 12 samples.

Results

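The genes described here are the ligands and receptors of the epidermal growth factor (EGF) family in mouse skin. They are the ligands Hbegf, Tgfa, Ereg, Epgn, Btc and Egf and the receptors Egfr, Erbb2 and Erbb3. The genes were chosen by name, with earlier results of these data known. They are 9 of the 22180 genes measured, and all 9 had an array row naming no other gene. Ereg had 2 such rows, and the row with the higher mean was used.

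EGF family ligands are made as membrane-bound precursors, and proteases of the ADAM family cut them free. Hbegf, Tgfa, Ereg, Epgn, Btc and Egf bind the tyrosine kinase receptor Egfr, which then pairs with itself or with Erbb2 or Erbb3. Erbb2 has no known ligand of its own, and Erbb3 has little kinase activity and binds neuregulins. In the epidermis the ligands made by keratinocytes act on the same cells, and the pathway is known for its part in keratinocyte growth, wound closure and the thickened epidermis of psoriasis.

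Skin of the back of C57Bl/6 mice was profiled on 12 expression arrays, in 6 groups of 2 pools each, 1 pool at 10 weeks of age and 1 at 14 weeks. The groups were WT, IL-6KO (an IL-6 knock-out), IL-17C+ (overexpression of the cytokine IL-17C) and IL-17C+KO (a cross of the 2), as labelled. IL-17C+ and IL-17C+KO mice each gave a pool of involved and a pool of uninvolved skin at each age. Each pool held skin of male and female mice, 4 mice in WT and in IL-6KO at 10 weeks and 5 elsewhere, 58 in all as the pools are labelled. The sources used here do not give the promoter that drives the transgene or whether involved and uninvolved pools share mice. The labels give WT skin as uninvolved and IL-6KO skin as involved, although neither group is labelled as carrying the transgene. By its title, the series is about psoriasis-like skin inflammation that lasts in IL-17C+ mice once IL-6 is gone.

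Levels are log2 of the deposited array intensities, and the median row of an array lay between 3.97 and 4.23. A difference is a log2 value with its standard error, and p-values come from limma with Benjamini-Hochberg adjustment over the 22180 genes, with a gene called at an adjusted p under 0.05. With 2 pools a group, these p-values measure the spread between pools, which includes any group effect that changes with age and is not the spread between mice. Levels are compared between arrays for 1 gene, never between genes, because each row has its own probes.

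Il17c went against some labels if its row reads the transgene, and the sources used here do not say whether it does. WT gave 4.67 and 4.96 at 10 and 14 weeks, and IL-17C+ involved skin gave 5.81 and 6.63. IL-17C+ uninvolved skin, however, gave 4.74 and 4.16, close to WT at 10 weeks and below it at 14 weeks, and skin labelled IL-6KO gave 6.30 and 6.17. For Il17c, skin labelled IL-17C+KO involved gave 5.32 and 5.62, below IL-6KO, and IL-17C+KO uninvolved skin gave 6.16 and 6.25. Il6 read 2.68 and 2.79 in IL-6KO and 3.28 and 3.02 in IL-17C+ uninvolved skin. Skin labelled IL-17C+KO uninvolved gave the highest Il6 values, 4.93 and 5.00. Group names below are therefore labels, and every direction rests on them. The tissue make-up moved with the groups too: the mean of 9 neutrophil markers lay between 7.80 and 8.50 on the arrays of IL-17C+ involved and IL-17C+KO uninvolved skin. On the other 8 arrays it lay between 4.27 and 5.88. The mean of 15 skeletal muscle markers, from the muscle layer under the skin, ran from 7.75 in IL-17C+ involved to 10.62 in WT skin, both at 14 weeks. In whole skin, fewer cells of a type and less RNA per cell cannot be told apart. All 7 basal epidermis markers lay above the array median on every array, with list means between 7.68 and 8.43. Of the 7, 2 were called lower in IL-17C+ involved than in IL-17C+ uninvolved skin (median -0.63), where 0.834% of all genes were. Against WT, 1 was called higher and 1 lower in IL-17C+ involved skin (median -0.40), where 1.1% and 0.699% of all genes were. The basal markers thus did not move 1 way.

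Epgn, Ereg and Btc are neighbours in the genome. In the RefSeq annotation of GRCm38.p6, Epgn, Ereg, Areg and Btc follow each other on chromosome 5 with no other protein-coding gene between them, and Areg had no row of its own here. Against WT, Epgn and Btc, the outer genes of that row, had differences of opposite sign in IL-17C+ involved and IL-17C+KO uninvolved skin (below). Of the 2, only Btc was called in the former and only Epgn in the latter. The 250 bases before the start of each are shown, from RefSeq with the build GRCm38.p6, 5′ to 3′ on the gene's strand. Capitals mark a TATAAA match. Epgn lies on the plus strand (chr5:91027267-91027516) and Btc on the minus strand (chr5:91402995-91403244).
Epgn: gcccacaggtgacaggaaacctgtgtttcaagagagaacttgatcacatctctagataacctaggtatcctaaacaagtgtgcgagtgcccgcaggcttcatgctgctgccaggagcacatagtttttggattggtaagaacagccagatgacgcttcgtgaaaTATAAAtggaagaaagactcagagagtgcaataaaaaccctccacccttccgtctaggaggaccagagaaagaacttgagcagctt
Btc: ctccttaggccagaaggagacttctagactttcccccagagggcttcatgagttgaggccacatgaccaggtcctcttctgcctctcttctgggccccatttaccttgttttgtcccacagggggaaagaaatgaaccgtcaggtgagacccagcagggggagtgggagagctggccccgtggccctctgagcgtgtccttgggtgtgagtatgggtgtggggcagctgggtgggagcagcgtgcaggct
The Epgn sequence holds TATAAA once, starting 86 bases before the start, and Btc holds none. On either strand, 12.4% of 32851 such sequences hold TATAAA. The AP-1 motif TGANTCA (in 6.75% of all) and the STAT motif TTCNNNGAA (in 7.02%) had no match in the sequences of the 6 members searched, Tgfa, Epgn, Btc, Egf, Egfr and Erbb2. No sequence of Hbegf, Ereg or Erbb3 was searched. A missing match says only that these letters are not in this window.

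Hbegf, heparin-binding EGF-like growth factor, a wound-induced ligand, was highest in IL-17C+ involved and IL-17C+KO uninvolved skin. WT gave 5.40 and 4.98 at 10 and 14 weeks, IL-6KO gave 5.58 and 6.20, and IL-17C+ uninvolved skin gave 6.40 and 4.99. IL-17C+ involved skin gave 7.01 and 7.15, IL-17C+KO uninvolved skin gave 7.27 and 6.89, and IL-17C+KO involved skin gave 5.99 and 6.45. IL-17C+ involved and IL-17C+KO uninvolved skin gave the 4 highest values, and neither group overlapped WT or any other group except each other. Hbegf rose over WT by 1.89 ± 0.39 in IL-17C+ involved skin, a 3.71-fold rise (adjusted p = 0.0305). It rose by 1.89 ± 0.39 in IL-17C+KO uninvolved skin as well (adjusted p = 0.0357). In IL-17C+KO involved skin the difference from WT was 1.03 ± 0.39 (adjusted p = 0.595), and that group overlapped IL-6KO and IL-17C+ uninvolved skin. The call in IL-17C+ involved skin was lost without any 1 of its 4 arrays: adjusted p was 0.0708 without WT and 0.179 without IL-17C+ involved skin at 10 weeks, and 0.156 and 0.246 without them at 14 weeks. For IL-17C+KO uninvolved skin it was 0.0924 without WT and 0.319 without the IL-17C+KO pool at 10 weeks, and 0.112 and 0.164 at 14 weeks.

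**Figure D1:**
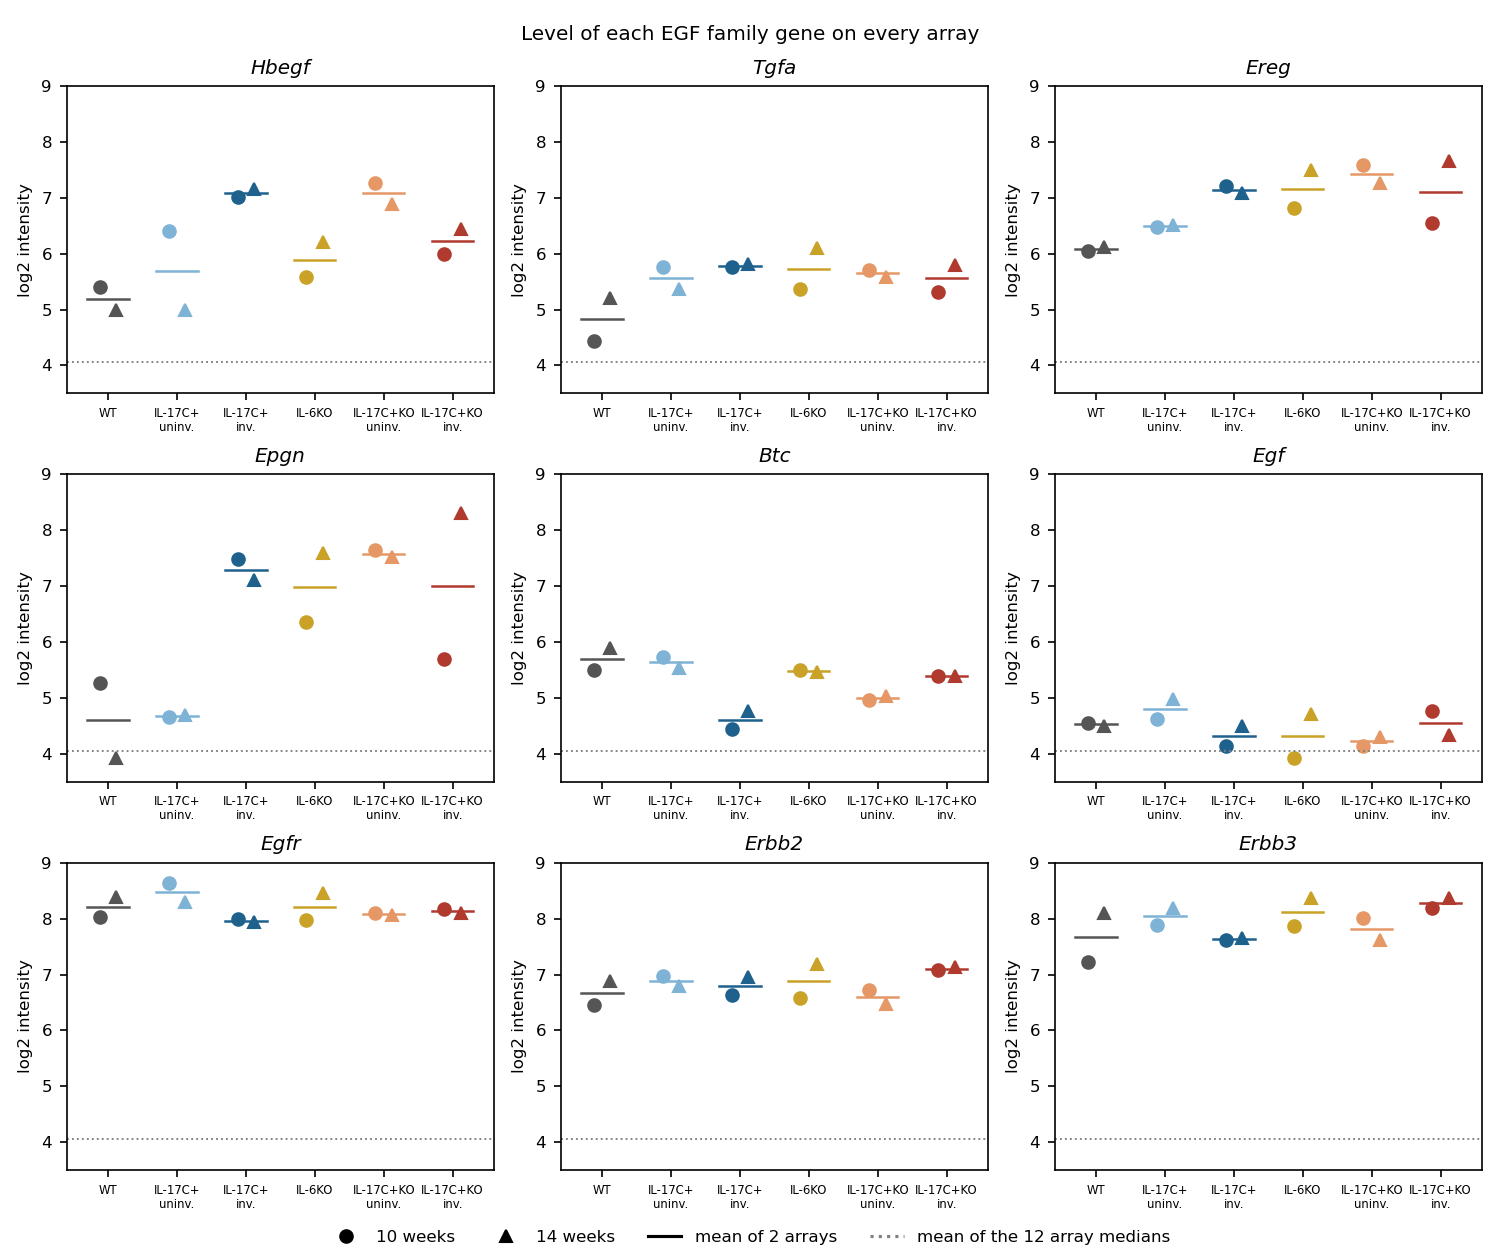
Log2 array intensity of each of the 9 EGF family genes (y axis) in the 6 groups (x axis), 1 point per array, circles for 10 weeks and triangles for 14 weeks, with the mean of 2 arrays as a bar; the dotted line is the mean of the 12 array medians, and values are comparable within a panel only. The 4 highest Hbegf values, from 6.89, are those of IL-17C+ involved and IL-17C+KO uninvolved skin, and Btc is lowest in IL-17C+ involved skin, at 4.44 and 4.76.

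Epgn, epigen, a ligand of epithelial tissues, spanned the widest range of the 9 genes, 4.38 log2 units. WT read 5.28 and 3.92, and IL-17C+ uninvolved skin 4.65 and 4.70. IL-17C+ involved skin read 7.49 and 7.10, and IL-17C+KO uninvolved skin 7.64 and 7.52. IL-6KO gave 6.37 and 7.60, and IL-17C+KO involved skin 5.70 and 8.31, the latter the highest of all arrays. WT and IL-17C+ uninvolved skin overlapped at the low end, and every array of the other 4 groups lay above both. The rise over WT passed the test in IL-17C+KO uninvolved skin (2.98 ± 0.65, 7.89-fold, adjusted p = 0.0452). The differences of 3 other groups from WT did not pass. That of IL-17C+ involved skin was 2.70 ± 0.65 (adjusted p = 0.0588). That of the IL-17C+KO involved group was 2.40 ± 0.65 (adjusted p = 0.371), and that of IL-6KO was 2.38 ± 0.65 (adjusted p = 0.196). Single arrays moved these values. Without the 14-week WT array the difference was 1.97 (adjusted p = 0.174) for IL-17C+KO uninvolved, 1.68 (0.319) for IL-17C+ involved, 1.39 (0.371) for IL-17C+KO involved and 1.37 (0.484) for IL-6KO skin. For IL-17C+KO involved skin it was 1.04 without its 14-week array and 3.77 (adjusted p = 0.0177) without its 10-week array. Without the 10-week WT array the rise in IL-17C+ involved skin was 3.71 (adjusted p = 0.0217), and it also passed with dim genes left out (0.0442) and after another quantile normalization (0.0497). Without the 10- or 14-week IL-17C+KO uninvolved array the called rise had an adjusted p of 0.372 or 0.165. It also missed the threshold when age was left out of the fit as a block (0.0654), when eBayes used no trend (0.0625), after another quantile normalization (0.0543) and without both IL-6KO arrays (0.0504).

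Ereg, epiregulin, another ligand of epithelia and of inflammatory cells, followed a similar but narrower course. WT gave 6.04 and 6.12, IL-17C+ uninvolved skin 6.48 and 6.51, and IL-17C+ involved skin 7.20 and 7.09. IL-6KO gave 6.81 and 7.51, IL-17C+KO uninvolved skin 7.59 and 7.26, and IL-17C+KO involved skin 6.54 and 7.66. Both WT values lay below all others, yet no difference was called: the largest was 1.34 ± 0.32 in IL-17C+KO uninvolved skin against WT (adjusted p = 0.0683). Against WT it was 1.06 ± 0.32 in IL-17C+ involved (adjusted p = 0.149) and 1.08 ± 0.32 in IL-6KO skin (adjusted p = 0.261). The second Ereg row read lower, between 4.40 and 5.30, and gave another order, with IL-17C+ involved skin highest at 5.30 and 5.30, while IL-17C+KO uninvolved skin gave 4.40 and 5.07. WT gave 4.90 and 4.96 on that row, so IL-17C+KO uninvolved skin lay below WT at 10 weeks and above it at 14 weeks. IL-17C+ uninvolved skin (4.65 and 4.60) and IL-17C+KO involved skin (4.89 and 4.55) lay below WT at both ages. The second row was not tested alone. With the mean of both rows, the difference of IL-17C+KO uninvolved skin from WT was 0.57, and that of IL-17C+ involved skin 0.72.

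Tgfa, transforming growth factor alpha, a ligand that keratinocytes release, varied less than Hbegf or Epgn. WT gave 4.44 and 5.21, the 2 lowest values of all arrays, and the other 10 arrays lay between 5.32 and 6.10. No difference was called, the largest from WT being 0.96 ± 0.30 in IL-17C+ involved skin (adjusted p = 0.157) and 0.91 ± 0.30 in IL-6KO skin (adjusted p = 0.33). Tgfa in WT thus overlapped no other group.

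Btc, betacellulin, a ligand of Egfr and Erbb4, went the other way. WT read 5.49 and 5.90 and IL-17C+ uninvolved skin 5.74 and 5.54, against 4.44 and 4.76 for IL-17C+ involved skin. IL-6KO gave 5.51 and 5.47, IL-17C+KO involved 5.40 and 5.39, and IL-17C+KO uninvolved skin 4.96 and 5.04. IL-17C+ involved skin held the 2 lowest values and IL-17C+KO uninvolved skin the next 2, with no overlap with any other group. Btc fell in IL-17C+ involved skin against WT by 1.09 ± 0.23 (a difference of -1.09, adjusted p = 0.0328). It fell by 1.04 ± 0.23 against IL-17C+ uninvolved skin (adjusted p = 0.0431). In IL-17C+KO uninvolved skin the difference from WT was -0.70 ± 0.23 (adjusted p = 0.19). Against WT the call was lost without the 10-week (adjusted p = 0.341) or 14-week IL-17C+ involved array (0.14) and without the 14-week WT array (0.176). Against uninvolved skin it was lost without the 10-week (0.318) or 14-week IL-17C+ involved array (0.203), the 10-week (0.276) or 14-week IL-17C+ uninvolved array (0.0667) and both IL-6KO arrays (0.0564). Without the 10-week IL-17C+ uninvolved array Hbegf passed that comparison in its place (2.14, adjusted p = 0.018).

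Egf itself lay near the array median, between 3.93 and 4.99, and on 1 array below it. No difference of Egf was called. The largest between groups was -0.58 ± 0.27 between IL-17C+KO uninvolved and IL-17C+ uninvolved skin (adjusted p = 0.647). A second row, which names Egf together with another gene and was not used for the tests, read 2.62 to 3.07.

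No difference of a receptor was called. Egfr, the receptor of all 6 ligands, lay between 7.93 and 8.63, a range of 0.70. Its lowest values, 7.99 and 7.93, were those of 10-week and 14-week IL-17C+ involved skin beside 7.97 in 10-week IL-6KO skin, and its highest, 8.63, that of 10-week IL-17C+ uninvolved skin. Between IL-17C+ involved and uninvolved skin it differed by -0.51 ± 0.26 (adjusted p = 0.476). Against WT the difference in IL-17C+ involved skin was -0.25, with a 95% interval from -0.81 to 0.32, so changes within that interval remain possible. Erbb2, the partner receptor, lay between 6.45 and 7.20, and its differences over the 14 comparisons ran from -0.29 to 0.60 with no adjusted p under 0.641. Erbb3, the neuregulin receptor, ran from 7.22 in WT at 10 weeks to 8.37 in IL-17C+KO involved skin at 14 weeks. It read 7.61 and 7.65 in IL-17C+ involved against 8.18 and 8.37 in IL-17C+KO involved skin, which did not overlap. That difference was 0.65 ± 0.29 (adjusted p = 0.527), with a 95% interval from 0.01 to 1.28. For IL-17C+KO involved skin against WT it was 0.61, with an interval from -0.02 to 1.25. Changes of Erbb3 within these intervals remain possible.

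In numbers, 2 of the 9 genes were called between IL-17C+ involved skin and WT, 1 higher and 1 lower, where 1.8% of all genes were called (1.1% higher and 0.699% lower). In IL-17C+KO uninvolved skin against WT 2 of 9 were called, both higher, where 1.39% of all genes were (1.12% higher). The median difference of the 9 was 0.13 and 0.15 in these comparisons, against 0.01 and -0.02 over all genes. Between IL-17C+ involved and uninvolved skin 1 of 9 was called, lower, where 1.61% of all genes were (0.834% lower). limma called 0 of 9 in the other 3 comparisons with WT, where it called 0.0541% of all genes in IL-17C+ uninvolved, 0.455% in IL-6KO and 0.0225% in IL-17C+KO involved skin. At an unadjusted p under 0.05 these held 1, 3 and 4 of the 9, against 5.69%, 8.41% and 7.69% of all genes. A count of 2 among 9 genes carries no test of its own. The 9 were chosen for their place in 1 pathway, with earlier results of these data known.

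**Figure D2:**
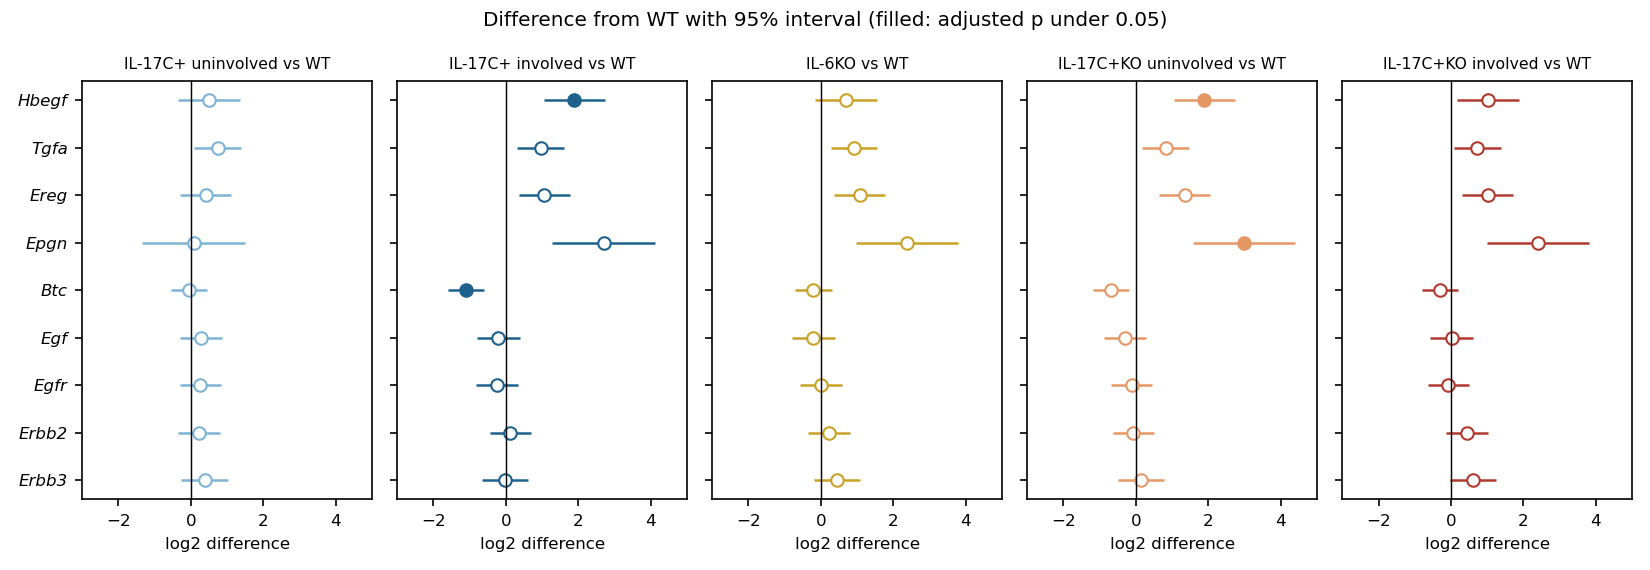
Log2 difference from WT (x axis) of the 9 genes (y axis) in each of the other 5 groups, with 95% intervals of the limma fit; filled points have an adjusted p under 0.05. Hbegf and Btc are filled in IL-17C+ involved skin and Hbegf and Epgn in IL-17C+KO uninvolved skin, while the 3 receptors and Egf lie between -0.30 and 0.61 in all 5 panels.

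The IL-17C+ and IL-17C+KO labels were compared through involved against uninvolved skin of each. Hbegf was higher in involved than in uninvolved IL-17C+ skin, by 0.61 at 10 and 2.17 at 14 weeks, but lower in involved than in uninvolved IL-17C+KO skin, by -1.27 and -0.45. The fitted differences were 1.39 ± 0.39 (adjusted p = 0.121) and -0.86 ± 0.39 (adjusted p = 0.804). The difference between them was -2.25 ± 0.56, just short of the threshold (adjusted p = 0.0534). Without the 10-week IL-17C+ uninvolved array it passed (adjusted p = 0.00553), without the 14-week one it was -1.50 (adjusted p = 0.144), and without the 14-week IL-17C+KO involved array -2.62 (adjusted p = 0.0408). It also passed when dim genes were left out, those not above the median on 2 or more arrays (adjusted p = 0.0388), after another quantile normalization (0.0369) and without both IL-6KO arrays (0.0467).

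Btc showed the mirror image, and for it the difference between genotypes was called. Involved minus uninvolved was -1.30 and -0.78 in IL-17C+ skin and 0.44 and 0.35 in IL-17C+KO skin, so that all 4 pairs followed their genotype. The interaction was 1.43 ± 0.33 (adjusted p = 0.0367), and Btc was 1 of 9 members called in a comparison that called 2.58% of all genes (1.15% in the positive direction). Leaving out 1 array kept its size between 1.26 and 1.61 but ended the call for 7 of the 8 arrays: adjusted p was 0.188 without IL-17C+ involved, 0.124 without IL-17C+ uninvolved, 0.203 without IL-17C+KO involved and 0.148 without IL-17C+KO uninvolved skin at 10 weeks. At 14 weeks it was 0.0953 without IL-17C+ involved, 0.0795 without IL-17C+KO involved and 0.148 without IL-17C+KO uninvolved skin.

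Epgn had a difference between genotypes of -3.20 ± 0.92 (adjusted p = 0.106). In IL-17C+ skin involved minus uninvolved was 2.84 and 2.41, while in IL-17C+KO skin it was -1.94 at 10 and 0.79 at 14 weeks. Without the 14-week IL-17C+KO involved array, the one with the highest Epgn, it was -4.57 (adjusted p = 0.00329), and without the 10-week one -1.84 (adjusted p = 0.451). Of the receptors and Egf, the largest such difference was 0.87 ± 0.42 for Erbb3 (adjusted p = 0.45), followed by Egf at 0.82, Erbb2 at 0.60 and Egfr at 0.56.

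**Figure D3:**
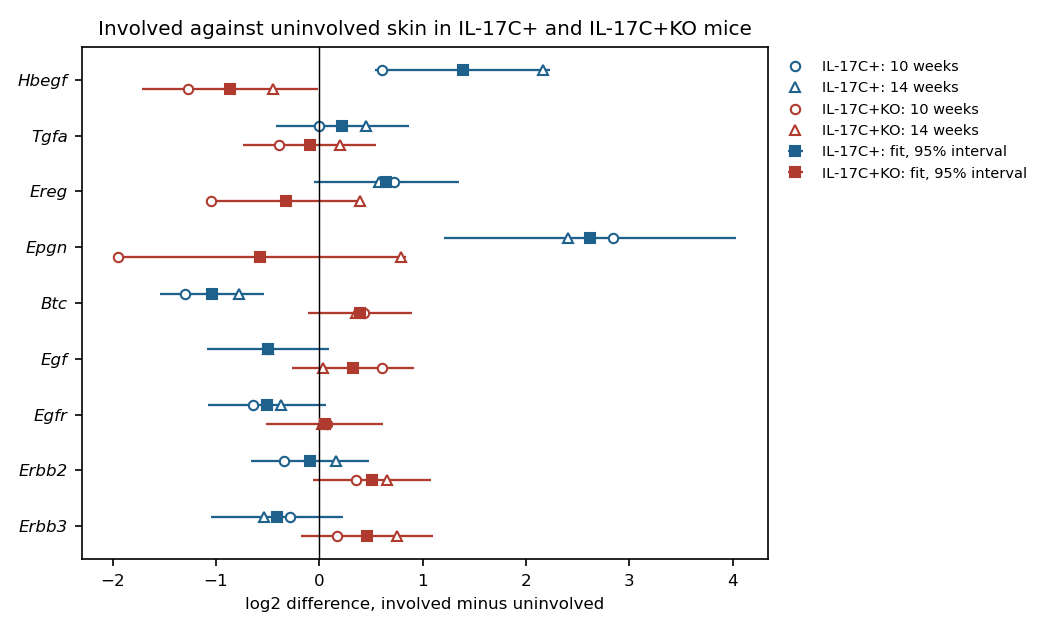
Involved minus uninvolved log2 difference (x axis) of the 9 genes (y axis) in IL-17C+ (blue) and IL-17C+KO skin (red); squares with bars are the limma fit and its 95% interval, open circles the 10-week and open triangles the 14-week pair. Hbegf lies right of zero in IL-17C+ and left of it in IL-17C+KO at both ages, and Btc the reverse.

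The IL-17C+KO and IL-17C+ labels were also compared within each site, although Il6 read 3.14 and 4.64 in skin labelled IL-17C+KO involved and 4.93 and 5.00 in skin labelled IL-17C+KO uninvolved, against 2.92 and 2.88 in WT. Within involved skin, the IL-17C+KO minus IL-17C+ difference was -0.86 ± 0.39 for Hbegf (adjusted p = 0.528) and 0.79 ± 0.23 for Btc (adjusted p = 0.19). Within uninvolved skin it was 1.39 ± 0.39 for Hbegf (adjusted p = 0.212) and 2.91 ± 0.65 for Epgn (adjusted p = 0.0773). limma called 0 of 9 in both, against 0.649% of all genes in involved and 0.712% in uninvolved skin, and 3 and 4 of the 9 had an unadjusted p under 0.05, against 9.29% and 7.87% of all genes. Without the 10-week IL-17C+ uninvolved array Hbegf was called in uninvolved skin (2.14, adjusted p = 0.0194), and without the 14-week one it was at 0.63 (adjusted p = 0.779). Within IL-17C+KO mice, limma called 0 of 9 between the skin sites, against 0.505% of all genes, with 1 at an unadjusted p under 0.05, against 6.11% of all genes.

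IL-6KO carries no transgene label, and its skin is labelled involved, so its labelled site differs from that of IL-17C+KO uninvolved skin. Against IL-6KO, limma called 0 of 9 in IL-17C+KO involved (0.171% of all genes) and in IL-17C+KO uninvolved skin (0.397%). Of the 9, 0 and 1 had an unadjusted p under 0.05, against 3.94% and 7.45% of all genes. IL-17C+KO involved minus IL-6KO was also set against IL-17C+ involved minus WT, and 0 of 9 were called (1.31% of all genes), with 5 at an unadjusted p under 0.05, against 9.98% of all genes. In order of size these 5 were Epgn at -2.68 ± 0.92 (adjusted p = 0.271), Hbegf at -1.56 ± 0.56 (0.294), Tgfa at -1.14 ± 0.42 (0.316), Ereg at -1.12 ± 0.46 (0.404) and Btc at 1.001 ± 0.33 (0.229). Without the 14-week IL-17C+KO involved array Epgn was called (-4.04, adjusted p = 0.00875), and without the 10-week one or the 14-week WT array it was -1.31 or -1.66 (adjusted p = 0.908 or 0.612). This contrast rests on the IL-6KO label, which Il17c goes against if its row reads the transgene. It also mixes labelled sites, with IL-6KO skin labelled involved and WT skin uninvolved, so site and genotype cannot be told apart in it. Several of these comparisons share WT or other control arrays and are not independent of each other.

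No age difference passed the test in the family. limma called 0 of 9 and 0% of all genes between 14 and 10 weeks, and 0 of the 9 had an unadjusted p under 0.05, although 1856 genes of all had one. The largest member difference was 0.34 ± 0.38 for Epgn (adjusted p = 0.765). Within single groups the 14-week Epgn level could lie far from the 10-week one, as in IL-17C+KO involved skin (5.70 and 8.31) and WT (5.28 and 3.92), and the age change within a group was not tested.

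Neutrophil and muscle markers moved with Hbegf, Epgn and Btc. IL-17C+ involved and IL-17C+KO uninvolved skin, where Hbegf was highest and Btc lowest, were the groups with neutrophil list means of 7.80 to 8.50, and all 9 neutrophil markers lay above the array median there. Of the other 8 arrays, all 9 markers lay above it in IL-17C+KO involved skin at 14 weeks, and 4 to 7 on the rest. Epgn was highest at 8.31 on that array, where the neutrophil mean was 5.88, and read 7.60 in 14-week IL-6KO skin with a neutrophil mean of 5.50. In IL-17C+ involved and IL-17C+KO uninvolved skin limma called 8 and 7 of the 9 neutrophil markers higher than in WT. It called 13 and 1 of 15 skeletal muscle markers lower. Of all genes, 1.8% and 1.39% were called there in either direction. Skeletal muscle means were 8.04 and 7.75 in IL-17C+ involved skin, and 9.86 and 10.62 in WT. IL-17C+KO uninvolved skin gave 8.41 and 8.96, and IL-17C+KO involved skin 10.32 and 8.88. Other lists moved too. In IL-17C+ involved skin 3 of 6 mast cell markers were called higher than in WT, with list means of 6.67 and 6.54. On the other 10 arrays that mean lay between 4.68 and 6.03. Of 12 hair shaft markers, 2 were called higher than in WT in IL-17C+ involved, 2 in IL-17C+ uninvolved, 6 in IL-6KO and 3 in IL-17C+KO uninvolved skin. Their mean ran from 4.44 to 8.47. In IL-6KO skin, 3 of 7 fibroblast markers were called lower than in WT, where 0.455% of all genes were called. Of 5 melanocyte markers, 2 were called higher in IL-17C+ involved and 1 in IL-17C+KO uninvolved skin. Over the 12 arrays the mast cell mean had an r of 0.788 with Hbegf and -0.834 with Btc, beside 0.886 and -0.879 for the neutrophil mean. The mean of 5 T cell markers, which lay between 3.59 and 4.47, had an r of -0.91 with Epgn, beside 0.73 for the neutrophil mean. Of those 5, 0 were called against WT in any group. At most 3 of them lay above the array median on any array, and Cd3d and Cd8a on none, so that mean rests on low signal. The skeletal muscle mean had an r of -0.754 with Hbegf, -0.867 with Epgn and 0.822 with Btc. The basal epidermis mean had an r of 0.721 with Egfr and 0.626 with Btc. For the suprabasal epidermis mean r was 0.882 with Erbb3 and 0.765 with Erbb2, and for the adipocyte mean 0.818 with Erbb3. These correlations describe 12 arrays that share 6 groups, and the part of any of these cell types in the differences was not tested.

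**Figure D4:**
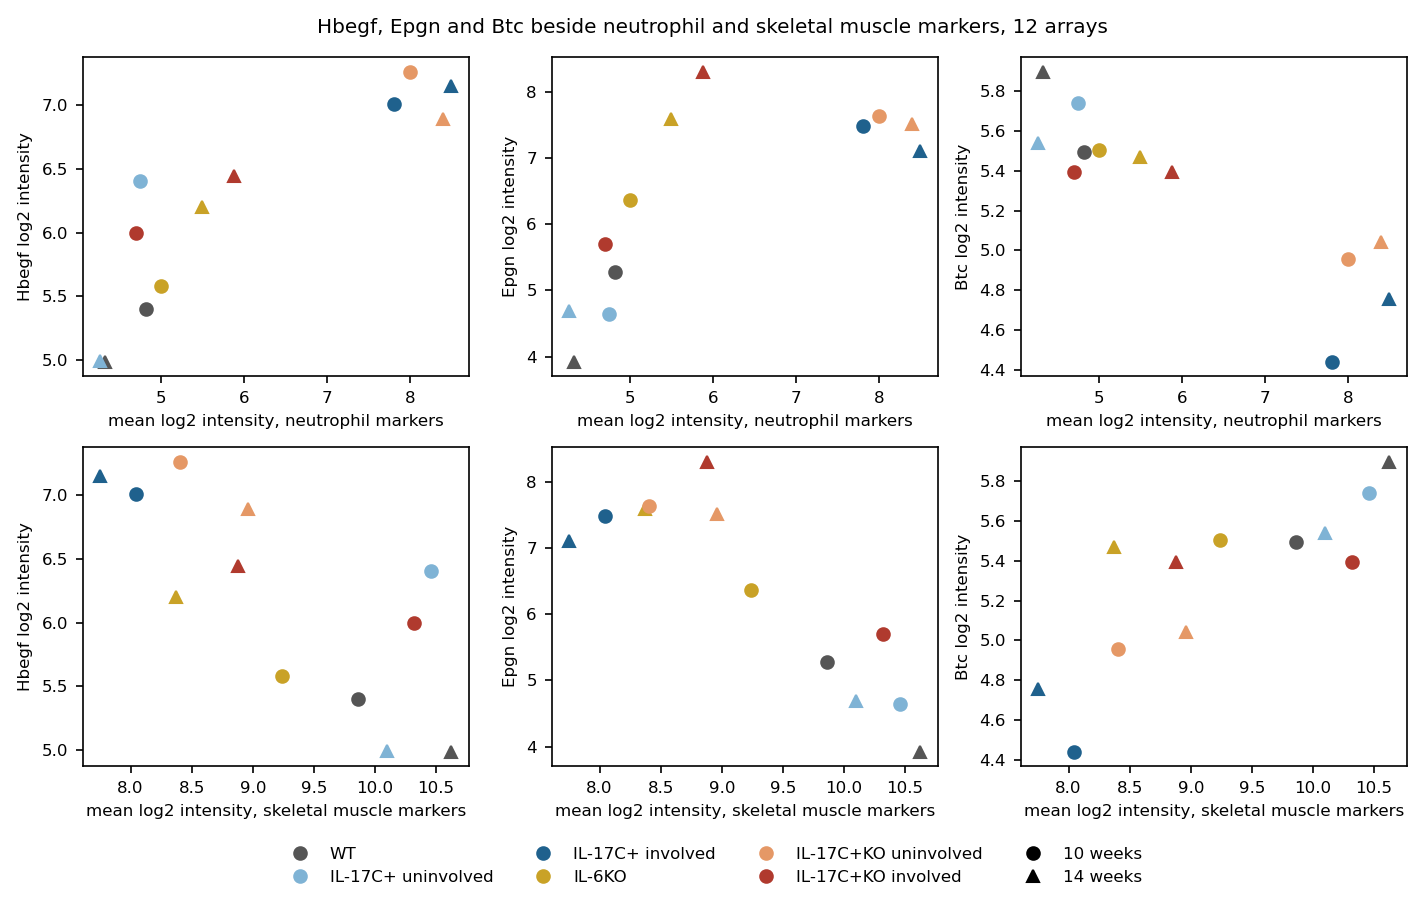
Log2 intensity of Hbegf, Epgn and Btc (y axes) against the mean log2 intensity of 9 neutrophil markers (upper row) and 15 skeletal muscle markers (lower row), 1 point per array, coloured by group. The 4 arrays with neutrophil means of 7.80 or more hold the 4 highest Hbegf and 4 lowest Btc values, while the highest Epgn value, 8.31, lies at a neutrophil mean of 5.88.

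The genes closest to the called members in pattern were found by Pearson correlation of log2 levels over the 12 arrays, which share 6 groups, so r is given as a description. For Hbegf they were Fcgr2b, an inhibitory Fc receptor (r = 0.939), Cd274, the checkpoint ligand PD-L1 (r = 0.930), and the stress keratin Krt16 (r = 0.928). For Epgn they were Il1f6, which encodes IL-36 alpha (r = 0.973), Aox4 (r = 0.966) and Chil1 (r = 0.960). For Btc they were Fbxo32, a ubiquitin ligase gene of muscle (r = 0.961), Slc2a12, a glucose transporter gene (r = 0.941), and Tnfrsf19 (r = 0.936).

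Around the ligands, the lists of ligand shedding and of early genes downstream of the kinase ERK had called members, and the lists of adaptors, feedback inhibitors and other ligands few or none. Of 10 shedding genes, 2 rose and 1 fell in IL-17C+ involved skin against WT, where 1.1% of all genes were called higher and 0.699% lower. Adam8 rose by 2.27 ± 0.33 (adjusted p = 0.00389), from 4.67 and 4.31 in WT to 6.44 and 7.08. Adam12, a protease that can release Hbegf, rose by 1.56 ± 0.30 (adjusted p = 0.0201). Timp3, an inhibitor of Adam17, fell by 1.73 ± 0.31 (adjusted p = 0.0138), from 7.94 and 8.70 in WT to 6.51 and 6.67. Adam17, the main shedding protease of several of these ligands, read 7.68 and 7.51 against 7.29 and 7.54 in WT and was not called. In IL-17C+KO uninvolved skin Adam8 rose by 2.08 ± 0.33 and Timp3 fell by 1.56 ± 0.31. That was 1 higher and 1 lower of 10, where 1.39% of all genes were called. In IL-17C+KO involved skin 0 of 10 were called, where 0.0225% of all genes were. The median of the 10 was 0.17, 0.24 and 0.08 in these comparisons. Adam8 is also made by neutrophils and other myeloid cells, whose markers were higher in the same groups, and their part was not tested. Calls were lost without the 14-week WT array (adjusted p = 0.0513 for Adam8, 0.12 for Adam12 and 0.113 for Timp3 in IL-17C+ involved skin). Without the 14-week IL-17C+ involved array they were 0.0714, 0.233 and 0.107, and without the 10-week one 0.0681 for Adam12 and 0.184 for Timp3. In IL-17C+KO uninvolved skin Adam8 and Timp3 missed the threshold at 0.0569 and 0.114 without the 14-week WT array, 0.0574 and 0.251 without its 10-week and 0.105 and 0.176 without its 14-week array.

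Of 18 ERK-responsive early genes measured, 3 rose in IL-17C+ involved skin against WT and 15 were not called, with a median of 0.12. Of all genes, 1.1% were called higher in that comparison. Plaur, the urokinase receptor, rose by 2.88 ± 0.43 (adjusted p = 0.00508), Ier3 by 1.86 ± 0.37 (adjusted p = 0.0235) and Phlda1 by 1.38 ± 0.27 (adjusted p = 0.0223). Plaur, Ier3 and Phlda1 rose in IL-17C+KO uninvolved skin too, by 2.91 ± 0.43, 1.66 ± 0.37 and 1.28 ± 0.27. There 1.12% of all genes were called higher. The classical early gene Egr1 had a difference of -1.44 ± 0.48 in IL-17C+ involved skin (adjusted p = 0.203), so the list did not move 1 way; Egr1 was picked after its values were seen. In IL-17C+KO involved skin 0 of 18 were called (median -0.01). In IL-17C+ involved skin Plaur missed the threshold without the 14-week WT array (0.0662). Ier3 and Phlda1 missed it without each of the 4 arrays: 0.0852 and 0.0861 without WT and 0.0681 and 0.307 without IL-17C+ involved skin at 10 weeks, 0.107 and 0.0812 and then 0.267 and 0.0679 at 14 weeks. In IL-17C+KO uninvolved skin Plaur was at 0.051 without the 14-week WT array, and 0.0522 and 0.0703 without the 10- and 14-week arrays of that skin. There Ier3 and Phlda1 were at 0.153 and 0.14 without WT and 0.462 and 0.347 without that skin at 10 weeks, and at 0.103 and 0.0794 and then 0.118 and 0.18 at 14 weeks. With age left out of the fit as a block they were at 0.0913 and 0.0649, and Ier3 was at 0.0541 without the trend and 0.0543 after another quantile normalization.

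Of 18 feedback inhibitors, 0 were called in IL-17C+ involved skin, where 1.8% of all genes were. Dusp5, a phosphatase induced by ERK signalling, was at 0.94 ± 0.23 in that skin (adjusted p = 0.0594). There Dusp5 did pass without the eBayes trend (0.0444), with dim genes left out (0.037) and after another quantile normalization (0.0243). In IL-17C+KO uninvolved skin 1 of 18 was called, Dusp5 at 1.17 ± 0.23 (adjusted p = 0.0278), where 1.12% of all genes were called higher. Of 15 adaptors and kinases measured, 0 were called in either, with medians of 0.02 and 0.28, and Pik3r1 was at -0.84 ± 0.31 in IL-17C+ involved skin (adjusted p = 0.274). Of 5 other family genes measured, Nrg1, a neuregulin that binds Erbb3 and Erbb4, was the called one. It read 5.75 and 5.37 in IL-17C+KO uninvolved skin and at most 4.98 on any other array, a rise over WT of 1.61 ± 0.28 (adjusted p = 0.0165). Without its 10- or 14-week array adjusted p was 0.219 or 0.0766, and without the 14-week WT array 0.0887. Dusp5 was at 0.0654 and 0.0921 without the 10- and 14-week WT arrays, and at 0.351 and 0.109 without those of IL-17C+KO uninvolved skin. The difference of Nrg1 from WT in IL-17C+ involved skin was 0.96 ± 0.28 (adjusted p = 0.131). Erbb4 lay below the array median on all 12 arrays, between 2.86 and 3.31. Of 4 keratins of hyperproliferative epidermis, 3 rose in IL-17C+ involved and 3 in IL-17C+KO uninvolved skin, led by Krt6b at 6.50 ± 0.65 and 6.07 ± 0.65. In IL-17C+KO involved skin 0 of 4 were called although their median difference from WT was 1.505, in a comparison that called 0.0225% of all genes.

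**Figure D5:**
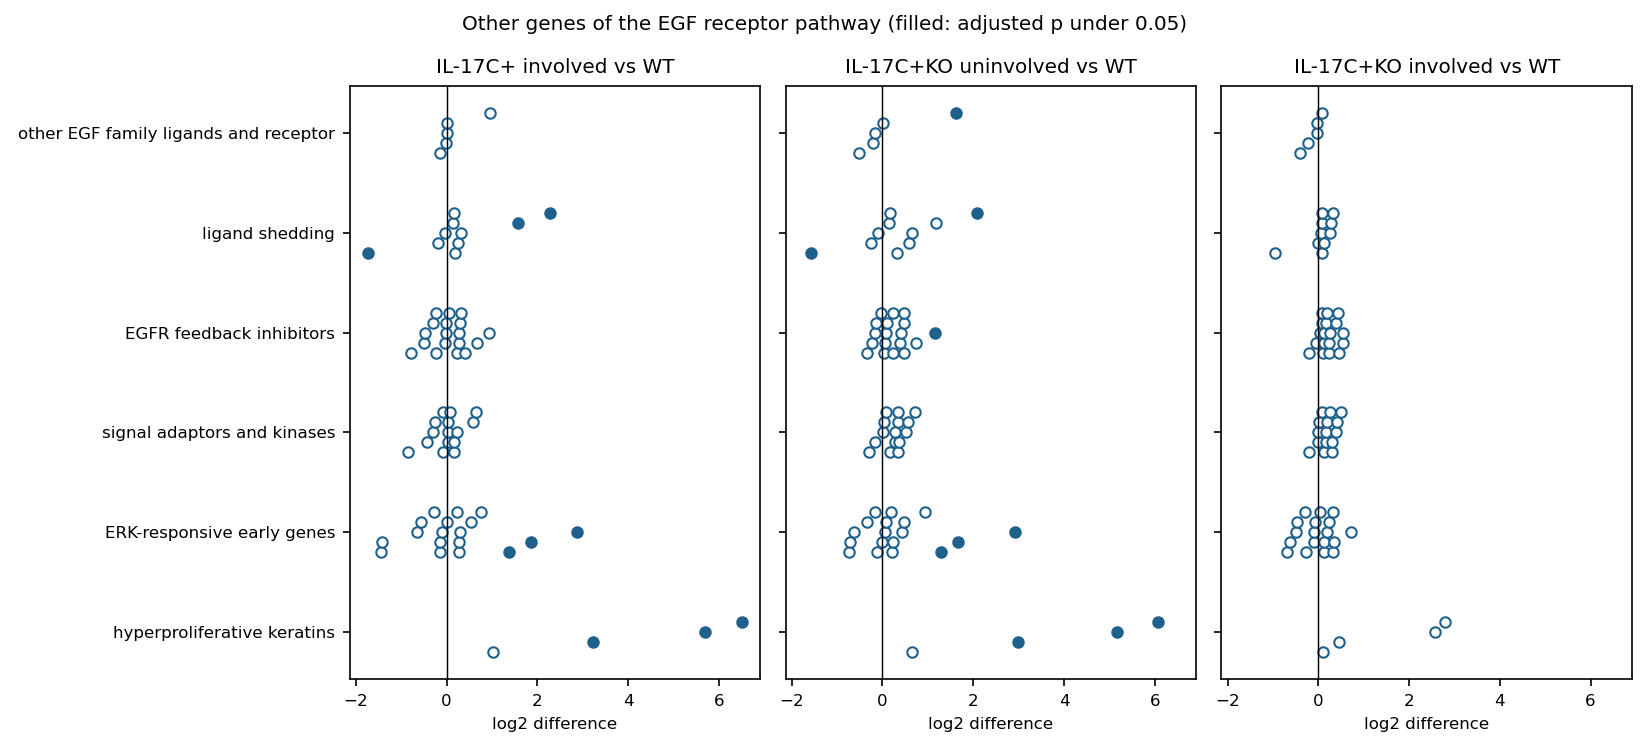
Log2 difference from WT (x axis) of every measured gene in the 6 pathway lists (y axis), 1 point per gene, in IL-17C+ involved, IL-17C+KO uninvolved and IL-17C+KO involved skin; filled points have an adjusted p under 0.05. Filled points lie among shedding genes, early genes and keratins in the first 2 panels, with Nrg1 and Dusp5 added in the second, and the third panel has none.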

How the data were processed

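The authors deposited 1 table of array intensities on a linear scale (2.50 to 18385), made with RMA in Affymetrix Expression Console, per the submitters' processing notes, with no versions. Values were converted to log2. Of 41345 rows, 23521 name 1 gene, and for genes with several the row with the highest mean was kept, leaving 22180 genes. The supplied platform annotation gave symbols, and all 9 members matched the RefSeq table of GRCm38.p6 by gene ID. limma 3.58.1 in R 4.3.3 fitted group plus age over all 12 arrays (5 residual degrees of freedom), with eBayes and an intensity trend, for 14 comparisons. The fit was tested on simulated data. No background-corrected or raw scanner values were used, so normalization by the authors could not be varied at its source. The members and lists were chosen with earlier results of these data known. Named genes are all 9 members, up to 4 called genes (or the largest uncalled) of each of the 6 pathway lists, and the 3 genes most like each called member among those with a mean above 4.05, predicted loci left out. Adam17, Erbb4 and the other Ereg row were named for their role, after their values were seen. Of 14 marker lists, those for neutrophils, muscle, mast cells, T cells and basal epidermis are reported, as levels, counts of calls and correlations. Those for suprabasal epidermis and adipocytes are reported as correlations only. Those for hair shaft, fibroblasts and melanocytes are reported as counts of calls, with the range of the mean for hair shaft. Arrays correlated at 0.889 to 0.976, and no 2 were identical. The number of arrays, 2 per group, limits the precision. Alternatives were no replicate block, no trend, a filter on dim genes, another quantile normalization, averaging a gene's rows and each array left out. Chosen after seeing the data was the removal of both IL-6KO or both IL-17C+ uninvolved arrays.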

Additional observations from a re-analysis of the deposited data

Results flagged for a closer look

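Effects that differed between genotypes by the interaction test were looked at again. For involved against uninvolved skin, the effect in IL-17C+KO minus that in IL-17C+ skin was 1.43 ± 0.33 for Btc (adjusted p = 0.0367, limma). Among the pathway genes it was -2.50 for Nrg1, -4.02 for Adam8, -2.51 for Adam12, 2.29 for Timp3, -2.87 for Ier3, -2.15 for Phlda1 and -5.57 for Plaur. For the keratins Krt6a, Krt6b and Krt16 it was -4.80, -9.09 and -7.45. These 10 pathway genes were the called ones of the 6 lists, with adjusted p-values of 0.0137 or less. No feedback inhibitor of 18 and no adaptor or kinase of 15 was called. The contrast called 2.58% of all genes. The difference of IL-17C+KO involved skin from IL-6KO minus that of IL-17C+ involved skin from WT was -2.24 for Adam8, 2.61 for the early gene Fosb, -3.69 for Krt6a, -6.30 for Krt6b and -5.59 for Krt16, with adjusted p-values of 0.0352 or less. This second contrast called 1.31% of all genes. These contrasts rest on the labels IL-6KO, IL-17C+ uninvolved and IL-17C+KO uninvolved, whose Il17c and Il6 levels are given above. In the second contrast, IL-6KO skin is labelled involved and WT skin uninvolved. Of the values in this section, only that of Btc was recomputed under the alternatives, and most single arrays left out ended its call.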

How the results depend on the processing

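Of 60 differences of named genes, each recomputed under the alternatives that bear on its groups, none reversed (679 values: 576 on the same side of the threshold, 87 no longer called, 16 newly called). Counts of members called, out of 9, changed as follows. For IL-17C+ involved skin against WT the 2 calls became 3, with Epgn added, with dim genes left out and after another quantile normalization. For IL-17C+KO uninvolved skin against WT the 2 calls became 1 with no replicate block, with no eBayes trend, after another quantile normalization and without both IL-6KO arrays, Hbegf remaining in each. For IL-17C+ involved against uninvolved skin the 1 call became 0 without both IL-6KO arrays. For the site by IL-6 interaction the 1 call became 2, with Hbegf added, with dim genes left out, after another quantile normalization and without both IL-6KO arrays. With 1 array left out, the count ran from 0 to 2 for IL-17C+ involved against WT and for the site interaction. It ran from 0 to 1 for IL-17C+KO involved against WT, IL-17C+KO uninvolved against WT, IL-17C+ involved against uninvolved, IL-17C+KO uninvolved against IL-17C+ uninvolved and the transgene by IL-6 interaction. A lone array is then assumed to vary like the other groups. Removing the replicate block of age changed no other count of members; the cause of these changes was not tested. Over genes, the change from 10 to 14 weeks correlated between groups at -0.21 to 0.52, above 0.1 in 7 of 15 pairs of groups. Ereg moved by over 1.5 times with the mean of its rows, whose second row has another order and was not tested alone. Signal near the array median limits Egf, the T cell markers and, in WT, Epgn. The called pathway genes also lost calls with 1 array left out, such as Dusp5 and Nrg1 in IL-17C+KO uninvolved skin.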
